A study of Mus musculus with 7 samples.

Results

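The Hox clusters are 4 short stretches of the mouse genome in which the Hox genes lie side by side, and they were examined here as targets of PU.1 and MITF. Of the 38 Hox genes taken as members, 10 lie in the Hoxa cluster on chromosome 6, 10 in Hoxb on chromosome 11, 9 in Hoxc on chromosome 15 and 9 in Hoxd on chromosome 2. A peak was taken as a Hox peak when its centre lay between the first and the last member gene of a cluster or within 20 kb beyond them, on the mm9 build. By this rule 63 of the 238652 PU.1 and MITF peaks were Hox peaks, 62 of them for PU.1 and 1 for MITF. The 4 windows measured 138.5 kb (Hoxa), 213.9 kb (Hoxb), 155.7 kb (Hoxc) and 136.8 kb (Hoxd), 645.0 kb in all.

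ChIP-Seq sequences the DNA fragments that an antibody recovers together with a chromatin protein, and the places where fragments (tags) pile up are called peaks. Bone marrow cells of C57BLACK6 mice, 4 to 6 weeks old, were grown for 3 days in 50 ng per mL CSF1 to give myeloid precursors (MPs), and MPs were then given 100 ng per mL RANKL for 36 h or, to obtain osteoclasts (OCs), for 72 h. PU.1 and MITF were each precipitated with 5 µg of antibody from MPs (CSF1 only), from 36 h cultures and from OCs, and a control with non-specific IgG came from MPs. Each condition has 1 library, so no value below has a replicate error, intervals cover counting error only, and a difference between times cannot be told apart from a difference between libraries. The cells are cultures made from whole bone marrow, and no source used here gives the number of mice behind a library.

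Hox genes encode homeodomain TFs, and their order along each cluster matches the order in which they are switched on along the body axis. In blood, several Hoxa and Hoxb genes are active in stem and progenitor cells and become silent as cells mature, when Polycomb complexes cover the clusters. PU.1 is an ETS family TF that marks the macrophage and osteoclast lineage and binds purine-rich DNA around a GGAA core, and MITF is a basic helix-loop-helix TF that binds E-boxes and acts with PU.1 at osteoclast genes.

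The PU.1 sites on which the results turn are shown first. The sequences are PU.1 OC peaks, read from the mm9 plus strand, 5′ to 3′, and they are the highest PU.1 OC peak of Hoxb and Hoxc, the next highest of Hoxb, the highest of Hoxd that covers no annotated exon, and the Hoxa10 site, the one with the lowest p between MPs and 36 h. Capitals mark GGAAGT, the core of the PU.1 motif, or its reverse complement ACTTCC.
Hoxa, upstream of Hoxa10, chr6:52191642-52191792: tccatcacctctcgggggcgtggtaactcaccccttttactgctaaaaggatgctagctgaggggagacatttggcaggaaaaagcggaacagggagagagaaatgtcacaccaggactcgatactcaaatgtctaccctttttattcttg
Hoxb, beyond Hoxb13, chr11:96067327-96067477: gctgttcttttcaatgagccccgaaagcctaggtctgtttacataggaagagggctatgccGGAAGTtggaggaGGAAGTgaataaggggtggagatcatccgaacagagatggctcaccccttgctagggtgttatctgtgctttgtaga
Hoxb, beyond Hoxb13, chr11:96063970-96064120: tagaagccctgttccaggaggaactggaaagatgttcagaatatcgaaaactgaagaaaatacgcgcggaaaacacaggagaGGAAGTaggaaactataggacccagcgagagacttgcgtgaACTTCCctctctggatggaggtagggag
Hoxc, intron of Hoxc6, chr15:102833597-102833747: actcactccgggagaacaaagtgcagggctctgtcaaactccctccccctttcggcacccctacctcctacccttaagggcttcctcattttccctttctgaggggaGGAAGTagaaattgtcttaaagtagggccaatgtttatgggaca
Hoxd, intron of Hoxd11, chr2:74518067-74518217: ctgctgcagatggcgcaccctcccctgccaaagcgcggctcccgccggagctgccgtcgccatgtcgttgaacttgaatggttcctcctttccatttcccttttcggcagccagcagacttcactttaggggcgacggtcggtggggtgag
The Hoxb13 and Hoxc6 sites hold the GGAAGT core, both Hoxb13 sites hold 2 copies of it, and the Hoxa10 and Hoxd11 sites hold none.

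PU.1 was called at 24 Hox sites in MPs, 19 at 36 h and 19 in OCs. Across the 4 clusters together this was 3.72 peaks per 100 kb in MPs (95% CI 2.38 to 5.54, exact Poisson), 2.95 at 36 h (1.77 to 4.6) and 2.95 in OCs (1.77 to 4.6). The same density was measured in the neighbourhoods of all 22367 protein-coding genes, each gene plus 20 kb on either side, and its median was 4.51 in MPs, 4.5 at 36 h and 4.645 in OCs. The Hox density was thus 0.826, 0.655 and 0.634 times the median neighbourhood, and 43.95%, 39.65% and 38.75% of neighbourhoods had a lower density. The Hox clusters therefore sat below the middle of the distribution in all 3 libraries, and the Poisson interval included the median in MPs and at 36 h and ended just below it in OCs (4.6 against 4.645). This distinction depended on the setting. With lists of equal size the OC median was 4.355, inside the interval. There, peaks tied at the lowest score were dropped by genome position, which is not an even thinning over the genome. With windows of the mean cluster length the median was 4.961 in each library, above the interval at 36 h too. The clusters were not empty of PU.1, and 22.56% to 22.95% of neighbourhoods held no peak at all in a given library. A neighbourhood spans a single gene and its flanks, while the clusters were pooled over 645.0 kb. This share and the percents of neighbourhoods with a lower density thus compare unlike lengths. The mean over the genome was 2.98, 2.81 and 3.01 peaks per 100 kb, close to the Hox values and inside their intervals.

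The clusters differed in number of peaks, within wide counting intervals. Hoxa held 6 PU.1 peaks in each of the 3 libraries, or 4.33 per 100 kb (95% CI 1.59 to 9.43). In MPs 3 of the 6 were at the lowest score of the list, and with lists of equal size, where peaks tied at the lowest score were dropped by genome position, 3 were left, or 2.17 per 100 kb. Hoxb held 11 in MPs (5.14 per 100 kb, 2.57 to 9.2) and 7 both at 36 h and in OCs (3.27, 1.315 to 6.74). Hoxb in MPs was the only case in which a cluster had more peaks per 100 kb than the median neighbourhood. Hoxc held 5, 4 and 4 peaks (3.21, 2.57 and 2.57 per 100 kb). Hoxd held 2 in each library (1.46 per 100 kb, 0.177 to 5.28), and 26.6% to 27.2% of neighbourhoods had fewer per 100 kb. The intervals of all 4 clusters overlapped in every library, so no order of the clusters was resolved at these counts.

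**Figure D1:**
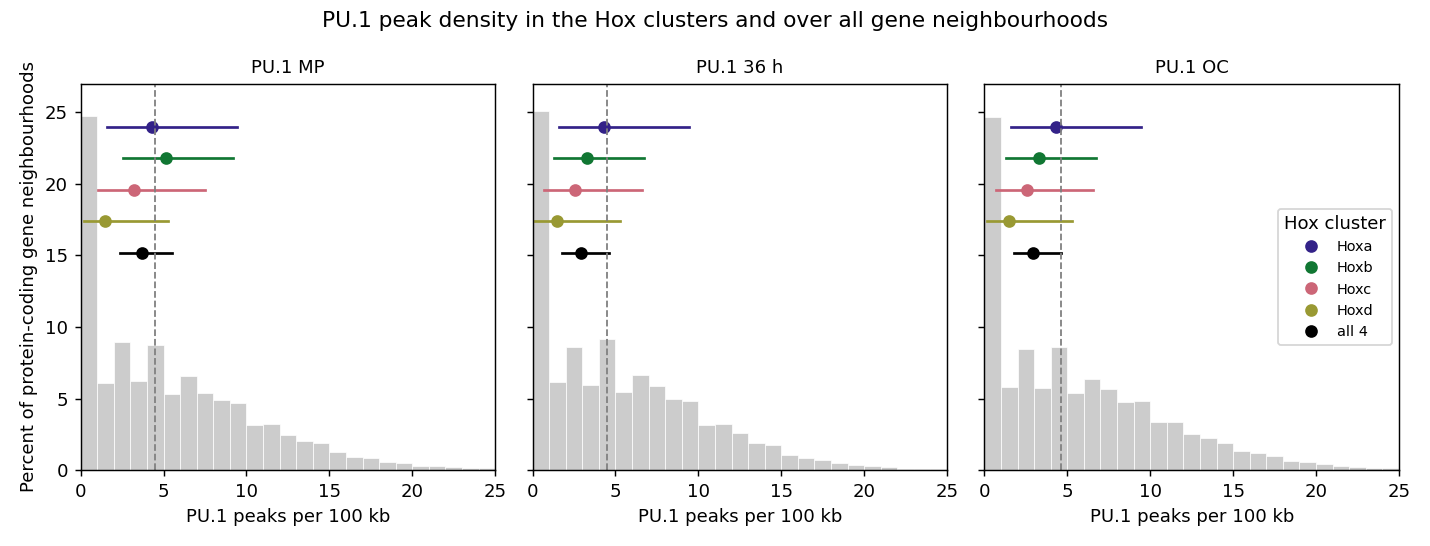
PU.1 peaks per 100 kb (x axis) in MPs, 36 h cultures and OCs. Grey bars give the percent of 22367 protein-coding gene neighbourhoods in each bin of 1 peak per 100 kb (neighbourhoods above the end of the axis are not drawn), the dashed line is their median, and points with lines are the Hox clusters with 95% Poisson intervals, placed at arbitrary heights. Hoxd has the lowest density in each panel at 1.46, and the value for all 4 clusters is left of the dashed line in each panel.

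The base composition of the clusters is not that of a typical gene. GC content was 48.8% in Hoxa, 48.2% in Hoxb, 47.8% in Hoxc and 47.9% in Hoxd, against a median of 44.4% over gene neighbourhoods. CpG dinucleotides numbered 25.9 per kb in Hoxa and 25.5 in Hoxd, more than in 99.68% and 99.6% of neighbourhoods, and 19.1 and 18.3 in Hoxb and Hoxc, against a median of 11.1. Neighbourhoods of like GC content, within 1 percentage point of the cluster, were richer in PU.1 peaks than neighbourhoods at large. Their median lay between 6.75 and 7.23 peaks per 100 kb, depending on cluster and library. Among these, 9.74% to 10.55% had a lower density than Hoxd, 19.5% to 23.0% had a lower one than Hoxc, and 26.9% to 29.4% had a lower one than Hoxa. For Hoxb it was 38.4% in MPs, 20.8% at 36 h and 21.05% in OCs. Compared at like GC content, the Hox density was 0.546 times the median in MPs, 0.423 times at 36 h and 0.414 times in OCs.

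Hox peaks had lower scores than most peaks. The score of a peak is its number of tags scaled to a common library size, and 1 tag was worth 1.7058 in the PU.1 MP list, 1.4781 in the 36 h list and 1.4684 in the OC list. The median score of Hox peaks was 14.5 in MPs, 16.3 at 36 h and 14.7 in OCs, whereas the medians of the whole lists were 23.9, 23.7 and 23.5. A Hox peak thus rested on a median of 8.5, 11 and 10 tags. Of the Hox peaks, 6 of 24 in MPs, 5 of 19 at 36 h and 4 of 19 in OCs scored above the median of their list. None reached the 90th percentile of its list, which was 98.9, 87.2 and 92.5. At or below the 25th percentile of the list were 12, 9 and 10 Hox peaks. Summed over the windows, PU.1 scores came to 74.3, 63.2 and 64.6 per 100 kb in MPs, at 36 h and in OCs, against neighbourhood medians of 127.6, 121.5 and 132.0.

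**Figure D2:**
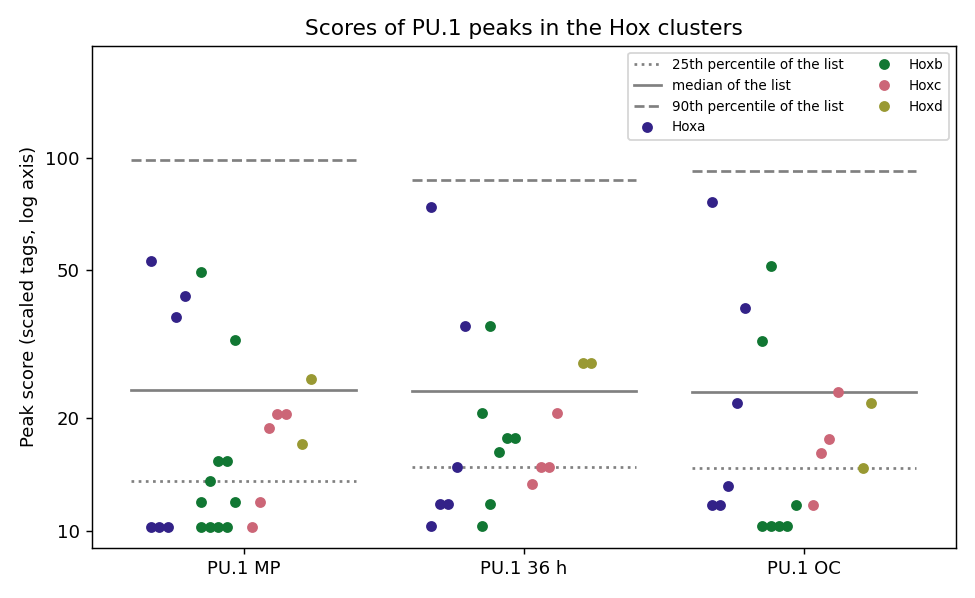
Peak score (y axis, scaled tags, log axis) of each PU.1 peak in the Hox clusters, in 3 libraries (x axis) and coloured by cluster, with the 25th percentile, median and 90th percentile of the whole list as lines. The highest point of each library is a Hoxa peak at 52.9, 73.9 and 76.4, and no point reaches the dashed line.

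When overlapping peaks of the 3 PU.1 lists were joined, the clusters held 32 PU.1 loci, 8 in Hoxa, 15 in Hoxb, 7 in Hoxc and 2 in Hoxd. Of these 13 lay between genes, 12 in introns and 7 over an exon or UTR of a coding or non-coding transcript. Called in all 3 lists were 11 loci, in 2 lists 8, and in a single list 13. Loci called in all 3 lists thus made up 34.4% of the Hox loci and 50.5% of the 102370 PU.1 loci of the genome. The scores of Hox loci seen in a single list had a median of 11.8 and a maximum of 18.8, while those of loci in all 3 lists had a median of 22.0 and a maximum of 76.4. Both Hoxd loci were called in all 3 lists, as were 4 of 8 in Hoxa, 3 of 15 in Hoxb and 2 of 7 in Hoxc.

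**Figure D3:**
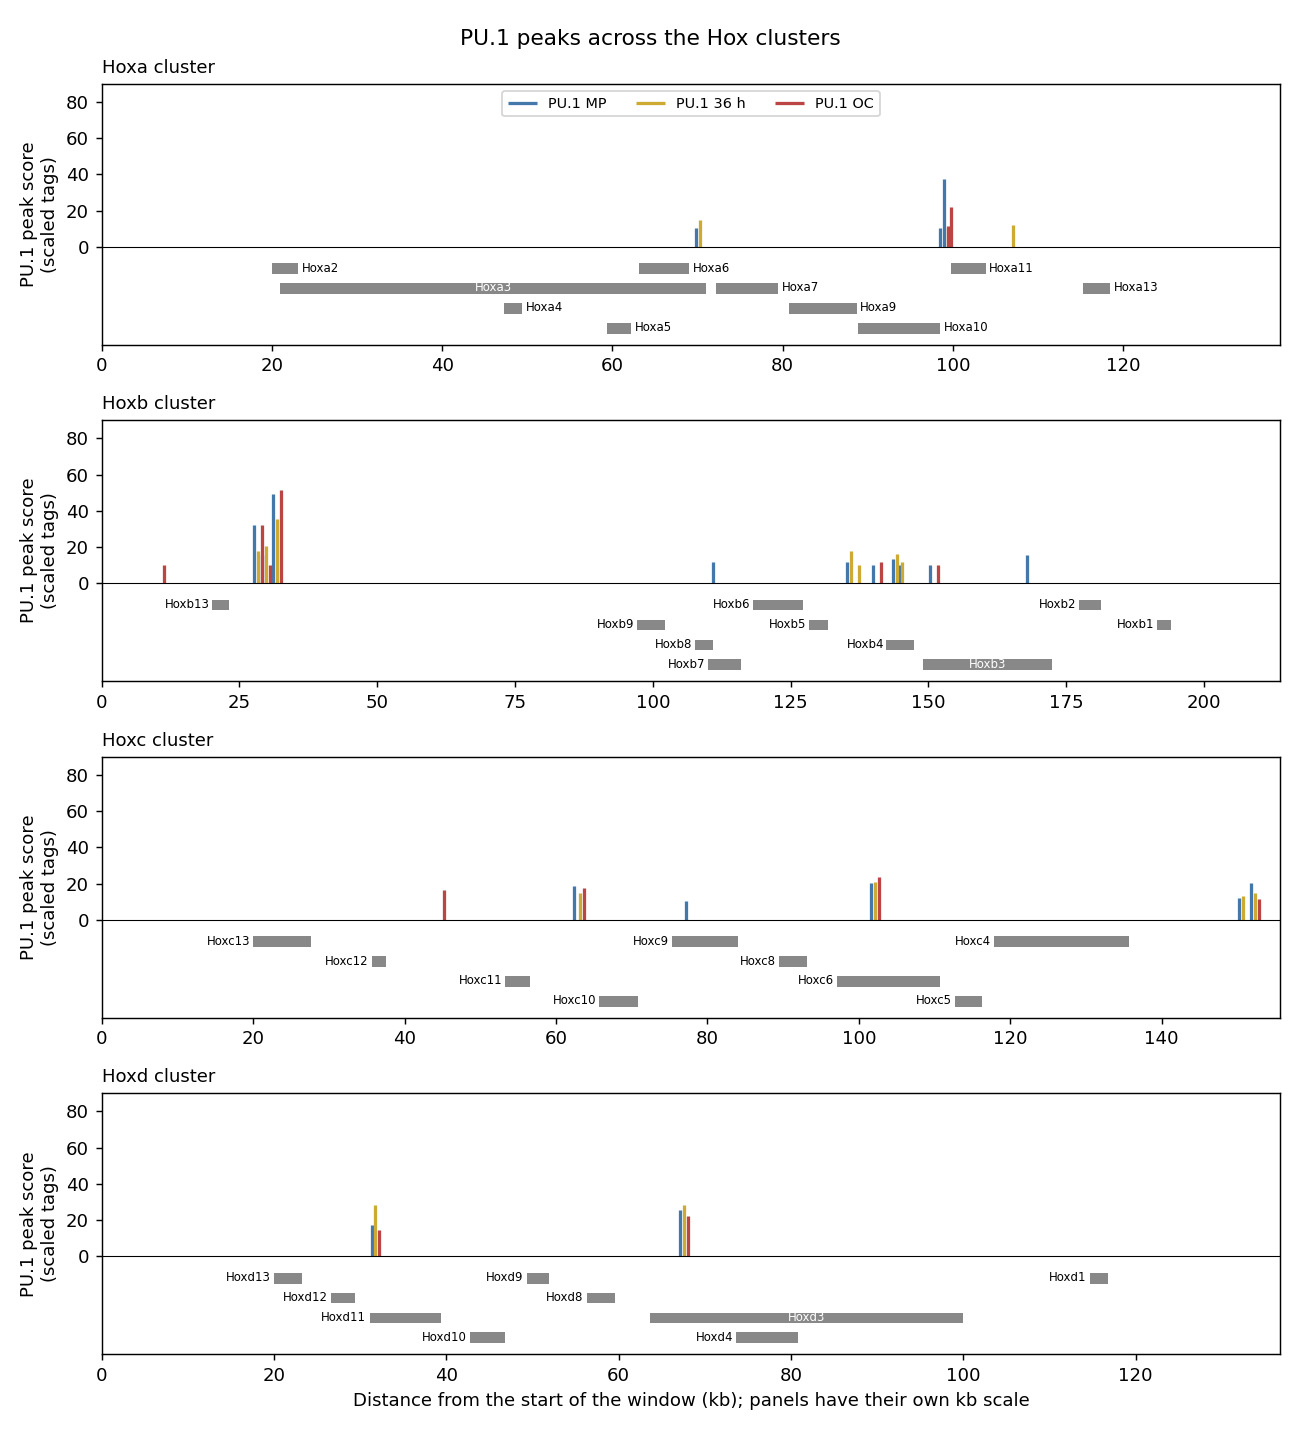
PU.1 peaks (vertical lines, height = score in scaled tags) along each Hox cluster in kb from the start of its window, with the 38 member genes as grey bars. Only peaks whose nearest protein-coding TSS belongs to a member gene are drawn, and lines of the MP and OC lists are moved slightly left and right so that lists at one site can be told apart. The tallest lines stand beyond Hoxb13, and the middle of Hoxa, from Hoxa4 to Hoxa5, holds no peak.

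Hoxa10, a gene of progenitor cells and of the reproductive tract, had the most uneven site. Its PU.1 peak, at -882 bp from the TSS, scored 37.5 in MPs (22 tags), 10.3 at 36 h (7 tags) and 22.0 in OCs (15 tags). The OC value lay between the others, and the 36 h value was at the lowest score of that list. Relative to the median ratio of all 56340 PU.1 pairs of MPs and 36 h, its log2 change from MPs to 36 h was -1.73 (exact binomial test on tags, two-sided, p = 0.004456, adjusted p = 0.14 over all pairs). Hoxa9, next to Hoxa10 and known from progenitor self-renewal and leukaemia, had this same site as its highest peak within 20 kb in MPs and OCs. A weak site within an intron at an inner start of Hoxa3 scored 10.2 in MPs (6 tags) and 14.8 at 36 h (10 tags) and was not called in OCs. Hoxa4 had no PU.1 peak within 20 kb in any list, and Hoxa5 and Hoxa6 had none in OCs.

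In Hoxb the strong sites lay together beyond the 3′ end of Hoxb13, a gene of the tail bud and prostate, in the wide gap that separates it from Hoxb9. The site 11785 bp past the TSS scored 49.5 in MPs (29 tags), 35.5 at 36 h (24 tags) and 51.4 in OCs (35 tags). The site 8418 bp past the TSS scored 32.4 (19 tags), 17.7 (12 tags) and 32.3 (22 tags). Between them lay another site over an exon of the transcript Gm11538, with 15.4, 20.7 and 10.3. These 3 were the only Hoxb loci called in every PU.1 list. The group of weak sites around Hoxb4, whose product expands blood stem cells, comprised 6 loci nearest to its TSS with scores from 10.2 to 17.7, none called in all 3 lists. Hoxb7 had a single site in its UTR (11.9, MPs only), and Hoxb1, at the other end of the cluster, had no peak within 20 kb in any list.

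Hoxc carried no PU.1 peak above the median of its list. Its highest site lay in an intron of Hoxc6, a gene of the thoracic region, 2727 bp past the nearest TSS, and scored 20.5 in MPs (12 tags), 20.7 at 36 h (14 tags) and 23.5 in OCs (16 tags). The 3 scores lay closer together than at the other sites named here. Upstream of Hoxc10, a gene of the hindlimb level, MPs had a peak of 18.8 at -2813 bp from the TSS. The later cultures had one of 14.8 (36 h) and 17.6 (OC) at -2551 bp, which did not overlap it. A peak of 16.2 beyond Hoxc12, over an exon of the transcript Gm16258, was called only in OCs, and it is the only PU.1 peak within 20 kb of Hoxc12 and Hoxc13 in any list.

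Hoxd had 2 loci, both called in each library. The site 3927 bp past the TSS of Hoxd3, a gene of the neck vertebrae, scored 25.6 in MPs (15 tags), 28.1 at 36 h (19 tags) and 22.0 in OCs (15 tags). The site in the first part of Hoxd11, which shapes the forearm, scored 17.1 in MPs (10 tags), 28.1 at 36 h (19 tags) and 14.7 in OCs (10 tags). At both the 36 h score was the highest. PU.1 peaks were mostly 190 bp wide at 36 h and 150 bp in MPs and OCs, and scores were not adjusted for width. Scores at 36 h are thus not strictly like for like with the others, here and at the other sites. From 36 h to OCs the Hoxd11 site had a log2 change of -1.04 relative to the median pair (exact binomial test, p = 0.06453, adjusted p = 0.8192). Hoxd1, at the end of the cluster, had no peak within 20 kb.

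**Figure D4:**
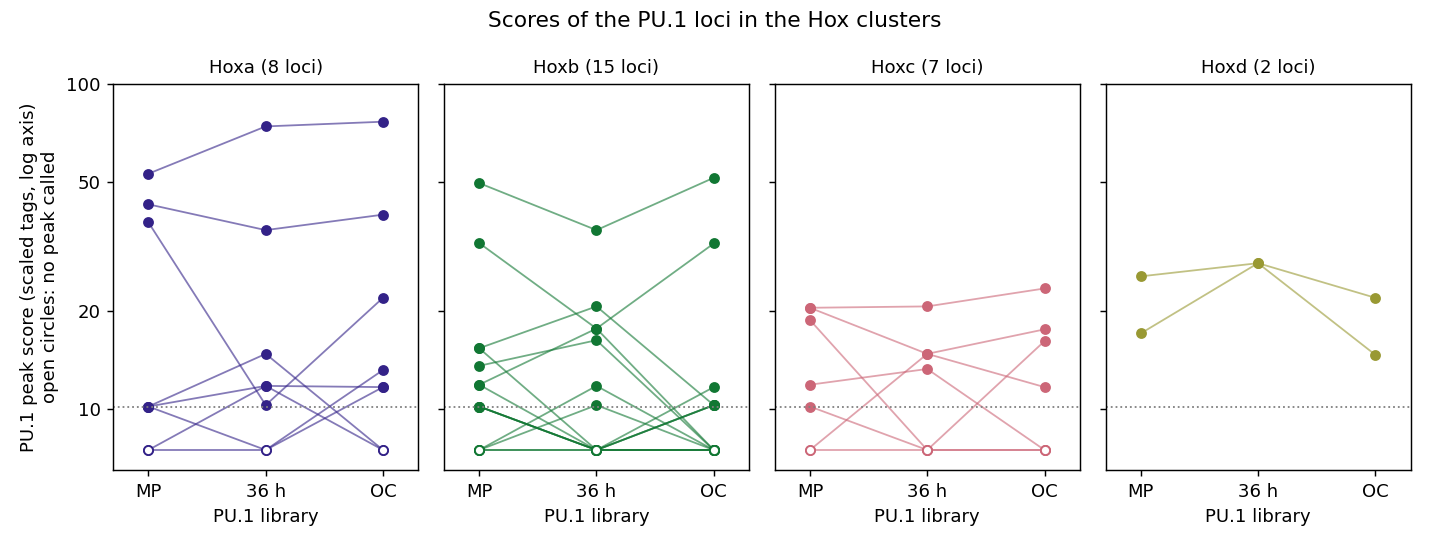
PU.1 score (y axis, scaled tags, log axis) of each of the 32 Hox loci in MPs, at 36 h and in OCs, 1 line per locus, 1 panel per cluster. Open circles stand for loci with no peak called in that list and are drawn below the dotted line at 10.2, the lowest score of the MP list, and most lines that end in an open circle start from scores near that limit.

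Of the Hox peaks in MPs, 9 of 24 had no overlapping peak at 36 h (37.5%, 95% Wilson CI 21.2 to 57.3), where 26.1% of the whole list had none. In OCs 10 of the 24 MP peaks had no partner (41.7%, 24.5 to 61.2, whole list 21.2%). In the other direction, 4 of 19 peaks of 36 h (list 21.7%) and 5 of 19 of OCs (list 22%) had no partner in MPs. Between 36 h and OCs, 7 of 19 lacked a partner either way (36.8%, 19.2 to 59.0, list 19.4% for peaks of 36 h and 24.7% for peaks of OCs). The interval lay above the value of the list for MP peaks without an OC partner, and it included that value in the other comparisons. The peaks without a partner scored between 10.2 and 18.8. With list peaks weighted to the scores of the Hox peaks, a comparison added after seeing the data, the list share was 35.7% for MP peaks without an OC partner and 27.1% to 41.0% over the 6 comparisons, and each interval included it. Every Hox peak that scored at least 2 times the lowest score of its list, 8 in MPs, 7 at 36 h and 7 in OCs, had a partner in both other lists. The share of whole-list peaks above that limit that had a partner is not given here. The result therefore cannot be called particular to Hox peaks.

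Where a Hox peak was called at both times, its tags were compared by an exact two-sided binomial test against the median ratio of all pairs. Of 15 Hox pairs of MPs and 36 h, 12 of 36 h and OCs, and 14 of MPs and OCs, 0 passed the limits of a 2-fold change and an adjusted p of 0.05. The share called over all pairs of the lists was 1.05%, 0.0707% and 0.156%. At an unadjusted p under 0.05 there was 1 Hox pair of MPs and 36 h, the Hoxa10 site, and 0 in each of the other comparisons. The median log2 change of Hox pairs relative to all pairs was 0.28 from MPs to 36 h, -0.0022 from 36 h to OCs and 0.02 from MPs to OCs, and single pairs ranged from -1.73 to 0.98. The test compares the reads of 2 libraries, and Hox pairs had a median of 24 to 29.5 tags over both libraries together against 38 to 40 for all pairs. Moderate changes were thus not detectable at this depth, and the log2 change of -1.73 at the Hoxa10 site did not pass either.

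Counted by gene, 33 of the 38 Hox genes had a PU.1 peak within the gene plus 20 kb in MPs, 29 at 36 h and 30 in OCs (86.8%, 76.3% and 78.95%). Over all protein-coding genes the share was 77.4%, 77.1% and 77.4%. Hox genes were thus near or somewhat above the share of all genes, but they lie so close together that 1 peak can count for several of them. Within 20 kb of a TSS the numbers were 33, 29 and 27 of 38, and the share of all protein-coding genes was 71.1%, 71% and 71.3%. The 62 PU.1 peaks made 76, 59 and 51 gene and peak pairs in the 3 libraries. Hoxb3, Hoxb5 and Hoxb4, in the middle of Hoxb, had 6, 6 and 5 peaks in MPs, 4 each at 36 h and 2 each in OCs. Hoxc genes had a PU.1 peak in 7 of 9 cases in MPs and at 36 h and in 9 of 9 in OCs, whereas Hoxb genes had one in 9, 5 and 6 of 10. Hoxa4, Hoxb1 and Hoxd1 had no PU.1 peak in any list.

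At the start sites themselves the picture was different. Within 1 kb of an annotated TSS, 4 of 38 Hox genes had a PU.1 peak in MPs (Hoxa3, Hoxa10, Hoxb3 and Hoxd11), 3 at 36 h (Hoxa3, Hoxa10 and Hoxd11) and 2 in OCs (Hoxa10 and Hoxd11). These are 10.5%, 7.895% and 5.26% of the members, where 35.3%, 37.1% and 37.9% of all protein-coding genes had one. Counted by peak instead, Hox peaks lay nearer to start sites than most peaks, but the windows were drawn around closely packed genes. No share was computed for arbitrary positions in the windows, so the comparison cannot tell the placing of peaks from the spacing of genes. Within 1 kb of the nearest TSS of a protein-coding gene, member or not, lay 6 of 24 Hox peaks in MPs (25%), 4 of 19 at 36 h (21.05%) and 6 of 19 in OCs (31.6%), against 13.0%, 14.0% and 14.1% of the lists. Of the Hox peaks in MPs, 15 of 24 lay 1 to 10 kb from the nearest TSS of a protein-coding gene (62.5%), against 29.1% of the list, and 3 lay over 10 kb away (12.5%), against 57.9% of the list. In OCs 11 of 19 lay at 1 to 10 kb and 2 over 10 kb away.

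MITF was nearly absent from the lists in the Hox clusters. The MITF MP list had 1 Hox peak, at 9.3 (9 tags), which is the lowest score of that list. No MITF peak was called in the clusters at 36 h or in OCs, where the lowest scores of the lists were 9.7 and 9.1. The MITF density was 0.155 peaks per 100 kb in MPs (95% CI 0.003925 to 0.864), and 0 at 36 h and in OCs (0 to 0.572). The genome held 0.211, 0.137 and 0.173 MITF peaks per 100 kb, so a shortage of MITF in the Hox clusters was not detectable at this number of peaks. Within the gene plus 20 kb, 2 of 38 Hox genes, both in Hoxa and through that same peak, had an MITF peak in MPs and 0 at 36 h and in OCs, where 20%, 14.5% and 17.6% of all protein-coding genes had one. The IgG list held 0 of its 349 peaks in the Hox clusters, which allows a share of up to 0.86% of that list (3 peaks of 349).

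PU.1 motifs were found at Hox peaks at shares near those of the whole lists. Matches to GAGGAAGT and to GGAAGT, which every GAGGAAGT contains, to the E-boxes CACGTG and CACATG, and to TGATTTAT, bound by HOX proteins with a TALE partner, were sought on either strand, up to 100 bp from the centre of each peak. GGAAGT was found at 13 of 24 Hox peaks in MPs (54.2%, 95% Wilson CI 35.1 to 72.1), 15 of 19 at 36 h (78.95%, 56.7 to 91.5) and 12 of 19 in OCs (63.2%, 41.0 to 80.85), and at 62.0%, 63.45% and 62.9% of all peaks of the lists. The longer GAGGAAGT was found at 6 Hox peaks in each library, 25%, 31.6% and 31.6%, against 22.5%, 23.1% and 22.8%. All intervals included the value of the list. CACGTG was found at 2 Hox peaks of each library, where 3.23% to 3.43% of the lists held it. CACATG was found at 1 of 24 Hox peaks in MPs, 0 of 19 at 36 h and 0 of 19 in OCs, against 14.7%, 14.4% and 14.4% of the lists. TGATTTAT was found at 0 Hox peaks, and at 0.577% to 0.709% of the lists. Among Hox loci called in all 3 lists, 8 of 11 held GGAAGT, as did 9 of 13 of those in a single list.

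The flanks of the clusters differed by distance. In the windows of cluster length that adjoin the clusters on each side, PU.1 density was 2.325 peaks per 100 kb in MPs, 2.71 at 36 h and 2.635 in OCs (8 windows, 30, 35 and 34 peaks). In the windows one step farther out it was 5.89, 5.74 and 5.66 (76, 74 and 73 peaks). The Poisson interval in OCs was 1.825 to 3.68 for the adjoining windows and 4.435 to 7.115 for the outer windows. Both overlapped that of the clusters (1.77 to 4.6), as they also did in MPs and at 36 h. Single adjoining windows ranged from 0.642 to 5.775 in OCs, so the sides of the clusters were not alike. All 4 windows around Hoxd held 1 PU.1 OC peak each, or 0.731 per 100 kb. Skap2, an adaptor protein gene next to the Hoxa cluster, had 10, 9 and 13 PU.1 peaks within the gene plus 20 kb, the highest at 163.8, 122.7 and 123.3. Skap1, an adaptor gene of T cells beyond Hoxb1, had 5, 8 and 7, the highest at 206.4, 240.9 and 212.9. Both also had 1 MITF peak in all 3 MITF lists, with scores of 17.7, 35.0 and 9.1 at Skap2 and 19.7, 58.4 and 25.1 at Skap1. Evx1, a homeobox gene beyond Hoxa13, had 2 PU.1 peaks in each list, the highest at 104.1 in MPs, 69.5 at 36 h and 60.2 in OCs. Smug1, a DNA repair gene beyond Hoxc4, had 4, 5 and 4, the highest at 143.3, 146.3 and 107.2. Lnp and Mtx2, the genes on either side of Hoxd, and Evx2, inside its window, had none within 20 kb in any list.

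The genes that act with or upstream of Hox genes had higher median PU.1 densities in OCs than the Hox genes themselves, but not all of them did in MPs. These lists are small, and their medians are given as a description beside that of all protein-coding genes. The latter was 4.51 peaks per 100 kb in MPs, 4.5 at 36 h and 4.645 in OCs, and 77.4% of all protein-coding genes had a PU.1 OC peak. The median PU.1 density over the 38 Hox genes was 4.035 peaks per 100 kb in MPs, 2.31 at 36 h and 2.30 in OCs. For the 11 TALE genes, which encode the DNA-binding partners of HOX proteins, it was 3.91, 4.14 and 6.21, and 11 of 11 had a PU.1 OC peak. Meis1, a partner of HOX proteins in blood progenitors, had PU.1 peaks of up to 220.0 in MPs, 172.9 at 36 h and 183.6 in OCs and also 1, 1 and 2 MITF peaks. Pknox1 reached 213.2, 223.2 and 196.8, Tgif1 reached 163.8, 180.3 and 168.9, whereas Meis2, with 1 PU.1 peak in each list, reached 27.3, 22.2 and 35.2. For the 19 chromatin regulators of Hox genes the median was 5.71, 6.21 and 6.05, and 19 of 19 had a peak in OCs. Kdm6b, a histone H3 demethylase that opposes Polycomb, reached 254.2, 252.8 and 223.2. Jarid2, a subunit that guides the Polycomb complex, had 16, 16 and 17 peaks, and Dot1l, a histone methyltransferase, had 13 in each library. For the 9 other upstream regulators the median was 4.30, 5.23 and 8.72, and Cdx4, a caudal gene, was the one without a PU.1 OC peak. Rara, a retinoic acid receptor, reached 192.8, 230.6 and 239.4.

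The 44 other developmental homeobox genes had a median of 2.16 peaks per 100 kb in MPs, 2.195 at 36 h and 2.73 in OCs. These medians were below the Hox genes in MPs and at 36 h and above them in OCs. Neighbourhoods of Hox genes overlap and hold few peaks each, so small differences between such medians, and their order over time, were not resolved. A PU.1 OC peak was called at 32 of 44 (72.7%), against 77.4% of all protein-coding genes. The highest PU.1 score within 20 kb was 52.9 for Hox genes and 104.1 for these in MPs, 73.9 and 69.5 at 36 h, and 76.4 and 69.0 in OCs. Myeloid genes such as Itgam, Csf1r and Spi1 had a median in OCs of 15.6 (12 of 12 with a peak). Osteoclast genes such as Nfatc1, Atp6v0d2 and Ctsk had one of 14.4 (8 of 8). The genes named had the highest summed PU.1 OC scores of their lists, while Calcr, the lowest of the 8 osteoclast genes, had 1 OC peak, or 0.840 per 100 kb. The osteoclast genes already had a median of 11.8 in MPs (8 of 8), so these values do not tell OCs from MPs. Genes of other cells, such as Krt5, Alb and Cd3e, had a median of 2.89 in MPs, 2.11 at 36 h and 2.89 in OCs (6 of 6). These medians were below the Hox genes in MPs and at 36 h, above them in OCs, and below all genes throughout. Krt5 had PU.1 peaks of up to 134.8 in MPs, 110.9 at 36 h and 139.5 in OCs, above the highest Hox score in each library. Myh6 reached 37.5, 37.0 and 27.9, and Neurod1 reached 20.5, 19.2 and 22.0.

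**Figure D5:**
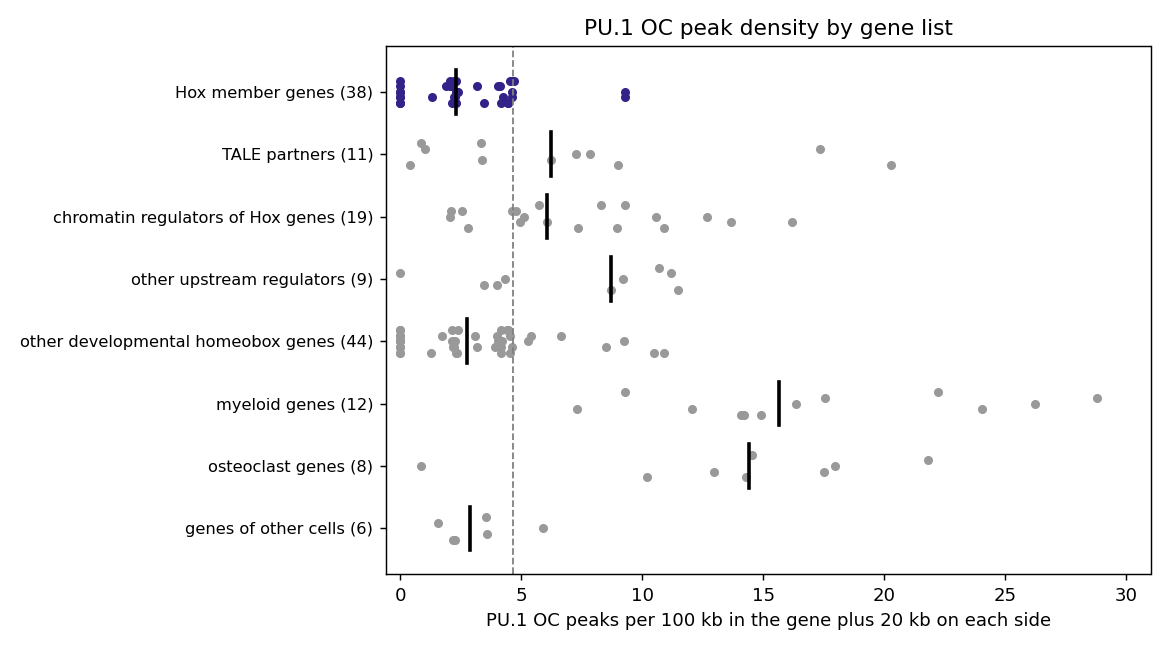
PU.1 OC peaks per 100 kb in the gene plus 20 kb on each side (x axis) for each gene (points) of 8 lists (number of genes in brackets), with list medians as black bars and the median of all protein-coding genes as a dashed line. Points are spread vertically for clarity. Hox genes, with a median of 2.30, and other developmental homeobox genes, with 2.73, lie mostly left of the dashed line, and myeloid genes, with 15.6, lie right of it.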

How the data were processed

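The authors processed reads with CASAVA 1.8, mapped them to mm9 with Bowtie2 and called peaks with HOMER (roles per the study's methods and the submitters' notes), and the other versions and settings are not given in the sources used here. The values they deposited are peak scores, a signal equal to the tags of a peak scaled to a common library size. The nearest transcripts deposited with the peaks served for an alternative count only. Scores were whole multiples of the worth of 1 tag to within 0.0505, which gave tags per peak. If the scale was 10000000 tags, the HOMER default (an assumption), libraries held 3120000 to 10270000 tags. PU.1 lists had 71941 to 77072 peaks and MITF lists 3540 to 5413. PU.1 peaks were mostly 190 bp wide at 36 h and 150 bp in MPs and OCs.

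Libraries were grouped by their labels. Here, peak centres were counted in windows of GENCODE genes on mm9 (the chromosomes and gene models given for this build), peaks were paired at an overlap of at least 1 bp, and tags of pairs were compared by an exact binomial test with Benjamini-Hochberg adjustment. Densities have exact Poisson and shares Wilson 95% intervals. The 260 PU.1 and MITF peaks off the main chromosomes were left out of the motif counts. The members, lists and rules were chosen with earlier results of these data known. All 38 members, the genes inside or next to the windows, the highest PU.1 OC peak of each cluster, peaks with MITF and up to 6 genes of each list (highest summed PU.1 OC score, or none) were to be named. The Hoxa10, Hoxb13, Hoxb4, Hoxb7, Hoxc10, Hoxc12 and Hoxd11 sites, Meis2 and the Hoxa3 site were added after their values were seen. Some sites in the windows are counted but not reported here singly. In simulated tags for MPs and OCs (60100 pairs), 199 of 200 pairs with a 4-fold change and at least 60 tags were recovered and 9 unchanged pairs were called. Hox pairs of MPs and OCs had a median of 24 tags, so the simulation does not show what could be found at most of them. Python 3.11.15, numpy 2.4.6, pandas 2.3.3, scipy 1.17.1, statsmodels 0.14.6, pysam 0.24.0 and matplotlib 3.10.9 were used.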

Additional observations from a re-analysis of the deposited data

How the results depend on the processing

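No paired analysis was possible because each condition has 1 library, and for the same reason no replicate could be left out. Of 330 alternative values, 296 stayed within the counting interval or within 1.5 times the main count. This total overstates stability, because not every value could move. No IgG peak lay in the clusters, and the MITF values at 36 h and in OCs were 0 from the start. All 45 values without IgG-overlapping peaks and all 39 with overlapping peaks merged stayed. Raising the lowest score allowed to 2 times that of the list moved 26 of 57 values, which were most of those that moved. PU.1 density over the 4 clusters was then 1.24, 1.085 and 1.085 per 100 kb in MPs, at 36 h and in OCs, Hoxb had 0.9348 in each, Hoxa had 1.444 at 36 h, and Hoxc had 0.6421 at 36 h and in OCs. Since neighbourhoods also held fewer such peaks, the ratio to the median neighbourhood was 0.579, 0.519 and 0.493. Hox genes with a PU.1 peak numbered 17, 16 and 17, PU.1 peaks without a partner were 0.0% in all 6 comparisons, and MITF in MPs was at 0.0 per 100 kb in all clusters and in Hoxa, with 0 genes. GAGGAAGT was found at 50.0% of the 8 PU.1 Hox peaks left in MPs and 57.14% of the 7 in OCs, GGAAGT at 87.5% and 85.71%, and CACGTG at 0.0% in MPs. Whole-list shares at this raised limit, for motifs or for peaks without a partner, are not given here. These values therefore cannot be set against the lists. With lists of equal size, Hoxa had 2.166 PU.1 peaks per 100 kb in MPs, and MITF in MPs was also at 0.0 in all clusters and in Hoxa, with 0 genes. With a flank of 10 kb 19 Hox genes had a PU.1 OC peak, and with 50 kb 5 had an MITF peak in MPs. Counted within 20 kb of the gene start, an alternative added after seeing the data, 1 gene had an MITF peak in MPs, and in the authors' annotation 0 did. Within 50 bp of the centre CACGTG was at 0.0% of PU.1 Hox peaks in OCs.

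In every alternative the ratio of PU.1 density in the clusters to the median neighbourhood stayed below 1, from 0.546 to 0.861 in MPs, 0.423 to 0.658 at 36 h and 0.414 to 0.676 in OCs. The lowest of each came from neighbourhoods of like GC content, also added after seeing the data. No alternative called a changed Hox pair, and the lowest adjusted p ran from 0.0691 to 0.406 for MPs with 36 h. The lists start at 6 to 10 tags, so weaker binding cannot be seen in them.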
